A study of Mus musculus with 12 samples.

Results

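The IgLON genes Opcml, Ntm, Lsamp and Negr1 were followed in embryonic mouse lungs taken whole at E15.5 (day 15.5 of gestation). They were taken by gene name, and all 4 were found among the 47069 genes of the count table. The members were picked with the difference between conditional knockout (CKO) and wild-type (WT) lungs already known from these same 6 lungs, in which Opcml stood out. Their CKO and WT values are therefore a description and carry no test.

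Total RNA was sequenced from 3 CKO and 3 WT lungs of strain C57BL/6. The CKO genotype is labelled Tgfbr2lox/flox/Tbx4-rtTA/Teto-Cre in replicates 1 and 2 and Tgfbr2flox/flox/Tbx4-rtTA/Teto-Cre in replicate 3, and the other group is labelled wild type, with no word on whether it carried any of these alleles. Tgfbr2 encodes a receptor of the TGF-beta pathway, and the Tbx4-rtTA transgene is known to switch on the doxycycline-dependent Cre in lung mesenchyme, while the RNA came from all cells of the organ. Both groups share a doxycycline protocol that began at E6.5, with 1 mg/ml in the water and more in the diet. The labels do not say whether lungs of a group came from separate litters, and the spread between lungs is the error used here.

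IgLONs are small cell adhesion proteins of the immunoglobulin superfamily that sit in the outer leaflet of the cell membrane on a glycosylphosphatidylinositol (GPI) anchor. They bind one another within the family, between cells or in the same membrane, and can be shed by proteases. They are best known from the nervous system, where they act in neurite growth and synapse formation. Opcml (opioid binding protein/cell adhesion molecule-like) is also studied as a tumour suppressor that is silenced in human ovarian cancer. Ntm encodes neurotrimin, Lsamp the limbic system-associated membrane protein and Negr1 neuronal growth regulator 1. The family has a further member, Iglon5, which was not chosen on the comparison.

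The genes are very long for the RNA they make. In GENCODE M21 (GRCm38) Opcml (ENSMUSG00000062257) spans 1135 kb of chromosome 9, from 27790775 to 28925410 on the plus strand, and its merged exons come to 14519 bases. Ntm (ENSMUSG00000059974) lies on the same chromosome from 28994750 to 29963141 on the minus strand, with 8079 bases of merged exons. The 3′ ends of these neighbours face each other across 69.3 kb. Lsamp (ENSMUSG00000061080) spans 2197 kb of chromosome 16, from 39984361 to 42181679 on the plus strand, with 17213 bases of merged exons. Negr1 (ENSMUSG00000040037) lies on chromosome 3 from 156561794 to 157316445 on the plus strand, with 10506 bases of merged exons. Other annotated genes lie inside the spans of all 4, but 0 of them share exon bases with the host gene, and those in the count table together held 0 counts inside Opcml (2 of 3 genes there are in the table), 134 inside Negr1, 6 inside Ntm and 1 inside Lsamp, summed over all lungs.

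**Figure D1:**
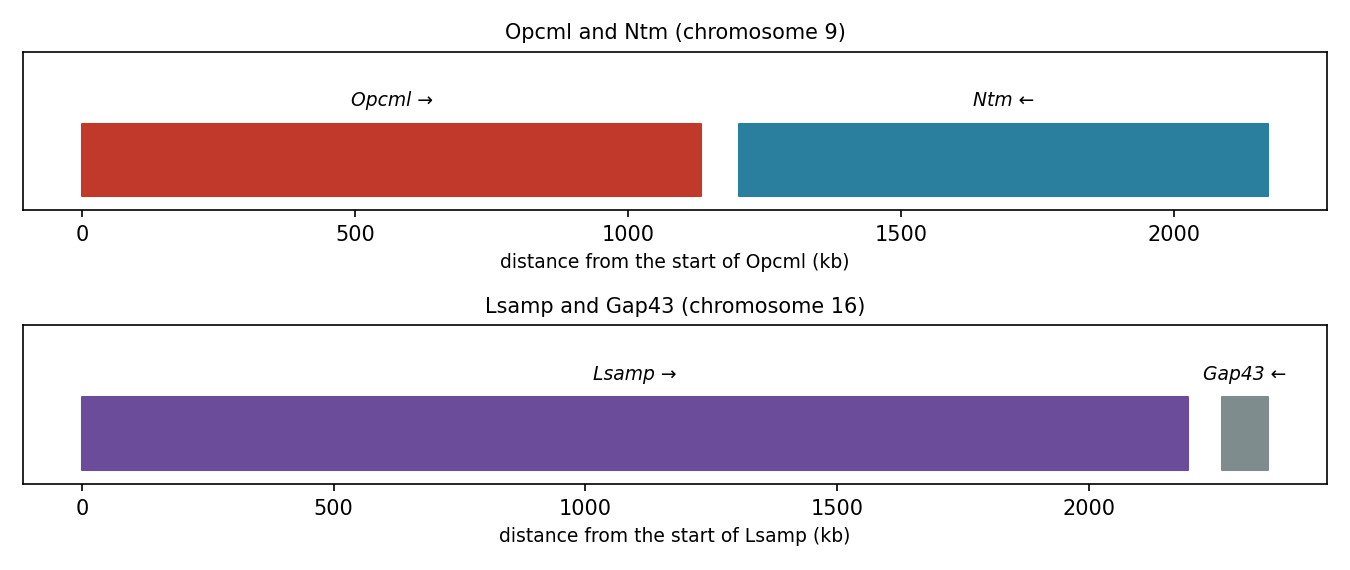
Map of the Opcml and Ntm genes on chromosome 9 and of Lsamp with its neighbour Gap43 on chromosome 16. The x axis is the distance in kb from the first base of Opcml or of Lsamp, boxes are whole gene spans, and arrows give the strand. Opcml and Ntm point at each other across 69.3 kb, and Lsamp and Gap43 across 66.8 kb.

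Sequence upstream of the start sites is shown for Opcml and Negr1 because these are the members that were lower in CKO lungs, and TGF-beta signalling ends at SMAD proteins that bind short DNA boxes. The 250 bases before each start site in the RefSeq promoter table (GRCm38.p6) were searched on either strand for the SMAD box CAGAC, which reads GTCTG on the other strand. The window of Opcml held 2 boxes and that of Iglon5 held 1, while the windows of Negr1, Ntm (2 start sites) and Lsamp (2 start sites) held 0. At least 1 box occurred in 42.2% of 32851 promoter windows of this length, and the share with 2 was not counted. A second search, for the GC box GGGCGG bound by SP1-type factors (CCGCCC on the other strand), gave 1 match each for Negr1, Iglon5 and 1 of the Ntm windows and 0 for Opcml and Lsamp, and 32.7% of all windows held one. In the lines here capitals mark the SMAD box for Opcml and the GC box for Negr1. The Opcml window lies inside annotated exons of Opcml itself, past the GENCODE M21 start at 27790775, so only 30 bases around each box are given. It is upstream of the RefSeq start site only.
Opcml, box starting 173 bases upstream, chr9:27791114-27791143, plus strand: ggcttggaggtgGTCTGctgtgcgcccagt
Opcml, box starting 88 bases upstream, chr9:27791199-27791228, plus strand: atcagagacgctGTCTGcctgctcccatct
Negr1, 250 bases upstream, chr3:156561544-156561793, plus strand: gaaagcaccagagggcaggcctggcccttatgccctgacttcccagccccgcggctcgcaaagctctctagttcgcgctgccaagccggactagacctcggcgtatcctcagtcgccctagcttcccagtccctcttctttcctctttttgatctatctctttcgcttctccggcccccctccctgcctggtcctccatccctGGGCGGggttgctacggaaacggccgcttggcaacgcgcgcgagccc
These matches are letters in a window, and binding was not measured. The GC content of the window was 52.0% for Opcml and 63.6% for Negr1, against a median of 52.4% over all promoter windows.

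Gene counts, summed over the 2 runs of each lung, came to 36741615 to 41680516 in CKO and 31983717 to 51572845 in WT lungs. Levels are given as CPM, counts scaled to a common library size with TMM factors, which correct for composition. The tissue label fitted its markers: Nkx2-1, the lung epithelial regulator, averaged 322 ± 7.01 CPM in CKO and 287 ± 40.1 CPM in WT lungs (SD, n = 3 each), and the mesenchymal factor Foxf1 averaged 169 ± 8.35 CPM in CKO and 173 ± 9.10 CPM in WT lungs. Tgfbr2 itself was at 225 ± 13.1 CPM in CKO and 211 ± 16.7 CPM in WT lungs (log2 fold change 0.09 ± 0.07 SE, adjusted p = 0.453 by edgeR's quasi-likelihood test). Reads from outside the deleted part and from cells without Cre enter this count, so it checks nothing about the deletion. Xist RNA had 100817 counts in CKO replicate 1 and 61807 in WT replicate 1, against 22 to 41 in the other 4 lungs, so replicate 1 of either group differs from the rest in sex.

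Of the 4 IgLON genes, Opcml and Negr1 were lower and Lsamp was higher in CKO than in WT lungs, and Ntm was not separated. These 3 passed an adjusted p under 0.05 in the fit over all genes, beside 8.71% of the 17843 genes tested (1555 genes). The 2 called lower stand beside 3.08% of all tested genes and the 1 called higher beside 5.64%. The CPM of CKO and WT lungs did not overlap for the same 3, beside 29.9% of all tested genes (14.4% lower and 15.5% higher in CKO). Since the comparison chose the genes, nothing is read from these shares. All 4 passed the filter on low counts.

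Opcml had 13.7, 14.3 and 11.7 CPM in CKO replicates 1 to 3 and 37.8, 38.3 and 43.7 CPM in WT replicates 1 to 3. Every CKO lung lay below every WT lung with a wide gap between the groups. The means were 13.2 ± 1.36 CPM in CKO and 39.9 ± 3.29 CPM in WT lungs (SD, n = 3 each), a log2 fold change of -1.60 ± 0.10 SE, or 3.03-fold lower in CKO. Of the 549 genes called lower in CKO lungs, 66 had a larger fall. The authors' deposited table gives -1.60 for the same gene.

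Negr1 had 14.5, 14.7 and 13.4 CPM in CKO replicates 1 to 3 and 27.9, 27.9 and 26.4 CPM in WT replicates 1 to 3. The lungs within a group were close together, with a coefficient of variation of 4.76% in CKO and 3.19% in WT lungs, and the groups stood well apart. The means were 14.2 ± 0.676 CPM in CKO and 27.4 ± 0.875 CPM in WT lungs, a log2 fold change of -0.95 ± 0.07 SE, or 1.93-fold lower in CKO (-0.95 in the authors' deposited table).

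Ntm, the neighbour of Opcml, had 16.7, 12.3 and 13.8 CPM in CKO replicates 1 to 3 and 19.0, 17.8 and 15.5 CPM in WT replicates 1 to 3. The groups overlapped, since CKO replicate 1 lay above WT replicate 3. The means were 14.2 ± 2.24 CPM in CKO and 17.4 ± 1.80 CPM in WT lungs (log2 fold change -0.29 ± 0.13 SE), and the gene was not past the threshold.

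Lsamp was the least abundant member and the only one of the 4 with a higher value in CKO lungs. It had 1.87, 2.57 and 3.35 CPM in CKO replicates 1 to 3, from 75, 95 and 141 counts. In WT replicates 1 to 3 it had 0.928, 1.28 and 1.01 CPM, from 29, 66 and 46 counts. The groups did not overlap, but the CKO lungs were spread over a wide range. The means were 2.59 ± 0.741 CPM in CKO and 1.08 ± 0.186 CPM in WT lungs, a log2 fold change of 1.26 ± 0.26 SE, or 2.39-fold higher in CKO (1.25 in the authors' deposited table). With so few counts, counting error is part of that spread.

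**Figure D2:**
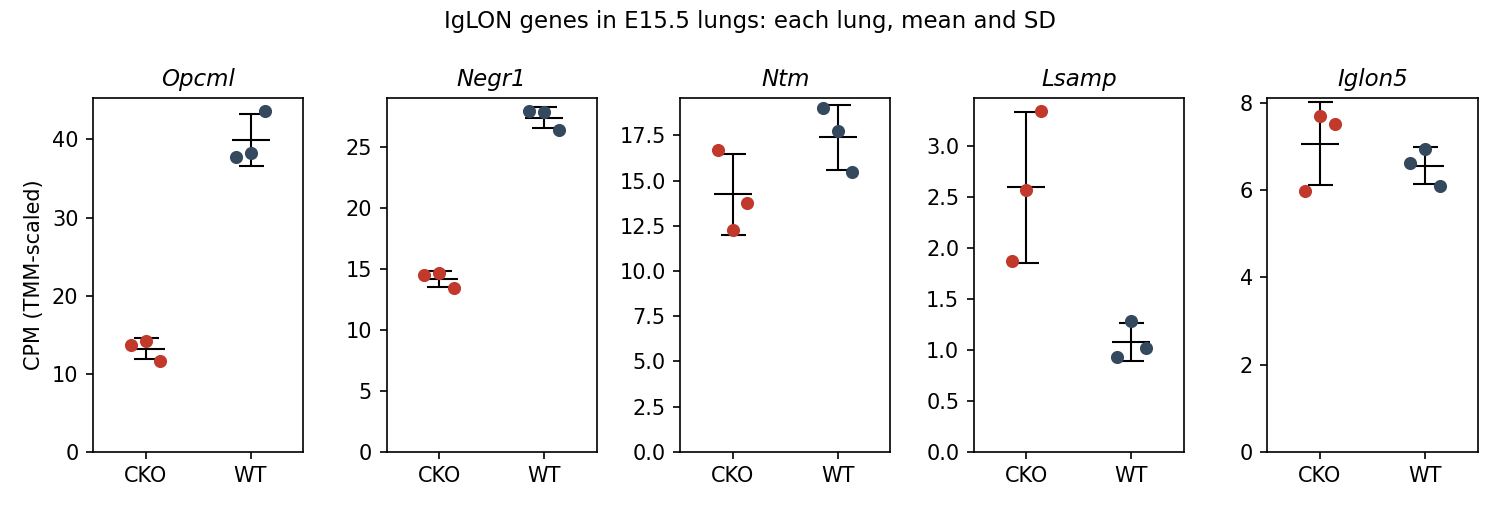
CPM (y axis, each panel on its own scale from 0) of the 4 chosen IgLON genes and Iglon5 in CKO lungs (left, red) and WT lungs (right, dark); points are lungs and bars are mean and SD of n = 3. CKO lungs lie below WT lungs for Opcml and Negr1, above them for Lsamp, and overlap them for Ntm and Iglon5.

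Because these same lungs chose the genes, fits that left out a lung are a description only. Opcml and Negr1 stayed past the threshold in all 6 such fits, with log2 fold changes of -1.65 to -1.51 and of -0.97 to -0.90. Lsamp kept its call when CKO replicate 1 (1.46) or WT replicate 3 (1.22) was left out. It lost it without CKO replicate 2 (1.27), CKO replicate 3 (1.04), WT replicate 1 (1.17) or WT replicate 2 (1.41). In those fits calls over all genes fell too, to 162 to 325 higher and 90 to 157 lower, against 1006 and 549. A lost call there does not show that the value rests on the lung left out. Ntm was past the threshold without CKO replicate 1 (-0.40) and in none of the other 5 fits of this kind (-0.36 to -0.19).

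Iglon5, the family member that was not chosen, did not pass. The choice was made with the values of these lungs known, so leaving Iglon5 out may rest on them too. It had 5.98, 7.70 and 7.53 CPM in CKO replicates 1 to 3 and 6.62, 6.95 and 6.11 CPM in WT replicates 1 to 3. The groups overlapped, and the log2 fold change was 0.11 ± 0.13 SE (adjusted p = 0.659, edgeR).

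Each lung was sequenced in 2 runs, and 25.0% to 25.9% of all gene counts of a lung came from the run labelled 17. Over the 4 members and 6 lungs, 0 of 24 exact two-sided binomial tests of that split had an adjusted p under 0.05, and the lowest raw and adjusted p were 0.118 and 0.829. These tests cover counting error within a library and say nothing about CKO against WT. The log2 fold change of Ntm was -0.11 with run 17 alone and -0.35 with run 18 alone. That of Lsamp was 1.03 with run 17 alone, where it was not past the threshold, and 1.32 with run 18 alone.

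CKO replicate 1 moved less than the other CKO lungs for most called genes. Over the 1555 called genes its shift from the WT mean on the log2 CPM scale was a median of 66.0% of the mean shift of CKO replicates 2 and 3, and 252 of them (16.2%) had a shift over 90%. For Opcml the share was 94.8% and for Negr1 95.1%, so these genes were as low in CKO replicate 1 as in the other CKO lungs. For Lsamp it was 55.1% and for Ntm 13.4%. These shares describe single lungs and were not tested. By its Xist counts CKO replicate 1 also differs in sex from CKO replicates 2 and 3. Sex and any other difference of that lung cannot be told apart here.

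**Figure D3:**
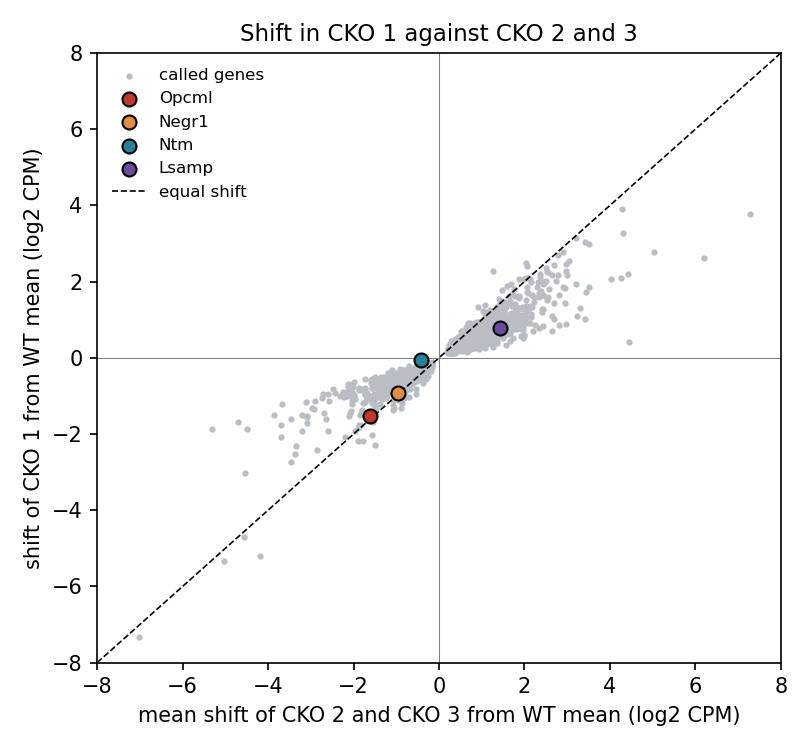
Shift from the WT mean in CKO replicate 1 (y axis) against the mean shift of CKO replicates 2 and 3 (x axis), both in log2 CPM. Grey points are the 1555 called genes, coloured points are the 4 IgLON genes (Ntm is not called), and the dashed line marks equal shifts. Opcml and Negr1 sit close to the line, at 94.8% and 95.1%. Lsamp lies about midway between the line and no shift, at 55.1%, and Ntm lies near no shift, at 13.4%.

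Levels of different genes were compared per length, as CPM per kb of merged exons. In CKO lungs the order of levels was Iglon5 (2.28 to 2.93), Ntm (1.52 to 2.07), Negr1 (1.28 to 1.40), Opcml (0.803 to 0.982) and Lsamp (0.109 to 0.195), and the lungs of neighbours in that order did not overlap. In WT lungs the order by mean was Opcml (2.60 to 3.01), Negr1 (2.51 to 2.66), Iglon5 (2.33 to 2.65), Ntm (1.91 to 2.35) and Lsamp (0.0539 to 0.0746). There each of the first 4 overlapped its neighbours, and Lsamp lay below all of them. Opcml was next to last in every CKO lung, and in WT lungs it was highest by the mean and in replicate 3, while Negr1 was highest in replicates 1 and 2. Merged exons count every annotated isoform, and which isoforms these lungs use was not measured.

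Summed over the 5 genes, the per-length level was 6.77, 6.98 and 6.85 CPM per kb in CKO replicates 1 to 3 and 10.2, 10.2 and 9.82 CPM per kb in WT replicates 1 to 3. Opcml made up 13.9%, 14.1% and 11.7% of that sum in CKO replicates 1 to 3, against 25.5%, 25.8% and 30.6% in WT replicates 1 to 3. Lsamp stayed small, at 1.60% to 2.84% in CKO and 0.529% to 0.731% in WT lungs. The RPKM deposited by the authors use longer gene lengths (16946 bases for Opcml) and ran from 0.686 to 0.847 in CKO and from 2.02 to 2.57 in WT runs for Opcml. On that scale Ntm ran from 0.790 to 1.12 in CKO and from 0.988 to 1.27 in WT runs, and Negr1 from 0.916 to 1.10 in CKO and from 1.90 to 2.10 in WT runs. Ntm thus overlapped both Negr1 and Opcml in CKO runs, so its place in the order depends on the gene length used. In bulk tissue, fewer cells that express a gene and less RNA per cell cannot be told apart.

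**Figure D4:**
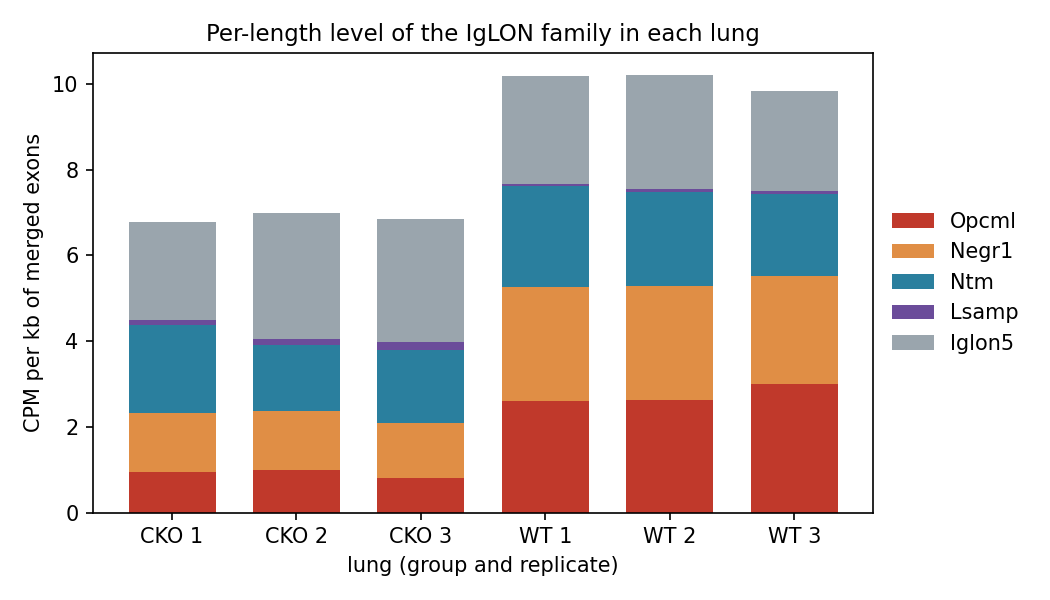
Level of each IgLON gene in CPM per kb of merged exons (y axis), stacked per lung, with the 3 CKO lungs left of the 3 WT lungs. The stacks reach 6.77 to 6.98 in CKO and 9.82 to 10.2 in WT lungs, and the Opcml and Negr1 parts are smaller in every CKO lung than in any WT lung, while those of Ntm overlap.

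The genes that flank the members were read next. Gap43, a growth cone protein gene whose 3′ end faces Lsamp across 66.8 kb, rose to 23.7, 24.7 and 22.5 CPM in CKO replicates 1 to 3, against 10.8, 7.69 and 7.98 CPM in WT replicates 1 to 3. The groups were far apart (log2 fold change 1.43 ± 0.13 SE, adjusted p = 0.00194 by edgeR), and the call held in all 6 fits that left out a lung, at an adjusted p of at most 0.0182. Snx19, beyond Ntm, was at 64.1 ± 4.29 CPM in CKO and 64.7 ± 3.60 CPM in WT lungs (adjusted p = 0.936), and Spata19, on the other side of Opcml, had 0 counts in every lung. Around Negr1, Zranb2 was at 209 ± 5.01 CPM in CKO and 220 ± 4.87 CPM in WT lungs (adjusted p = 0.315), and Lrriq3 was under 1.1 CPM in all lungs. Igsf11, on the far side of Lsamp, was also low, at 0.627 ± 0.262 CPM in CKO and 0.510 ± 0.169 CPM in WT lungs. Of the 5 flanking genes tested, 1 passed, beside 8.71% of all genes.

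Other adhesion genes of the immunoglobulin superfamily went both ways. Of 33 listed, 29 were tested, and 5 rose, 4 fell and 20 did not pass. Their median log2 fold change was 0.09, beside 0.00 over all genes, and 31.0% of them were called, beside 8.71% of all genes tested. The list was chosen with earlier results of these data known, so nothing is read from that share. The contactins are likewise adhesion proteins on a GPI anchor, known from neurons. Cntn1 rose to 21.4, 22.7 and 48.8 CPM in CKO replicates 1 to 3, against 7.01, 6.83 and 5.93 CPM in WT replicates 1 to 3 (log2 fold change 2.24 ± 0.32 SE, adjusted p = 0.00868). All CKO lungs were above all WT lungs, with CKO replicate 3 highest, and the call was lost without WT replicate 2 (adjusted p = 0.0530). In that fit 162 genes were called higher over all genes, against 1006 with all lungs. Cntn6, at 1.69 ± 0.252 CPM in CKO and 0.321 ± 0.114 CPM in WT lungs, rose 5.37-fold (adjusted p = 0.00567).

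Ncam1, the neural cell adhesion molecule gene, rose to 68.9, 102 and 113 CPM in CKO replicates 1 to 3, against 37.8, 38.2 and 39.0 CPM in WT replicates 1 to 3. Its WT lungs were nearly equal and its CKO lungs were spread, with replicate 1 lowest (log2 fold change 1.31 ± 0.16 SE, adjusted p = 0.00570). Nrcam, a member of the L1 family, fell to 21.9 ± 1.17 CPM in CKO lungs, against 40.6 ± 6.36 CPM in WT lungs (log2 fold change -0.89 ± 0.11 SE, adjusted p = 0.00570). Mdga1, another GPI-anchored protein with immunoglobulin domains, fell to 22.1 ± 1.61 CPM in CKO lungs, against 30.4 ± 1.93 CPM in WT lungs (adjusted p = 0.0169). Mdga1 lost its call without CKO replicate 2 or WT replicate 2 (highest adjusted p 0.0910), while Ncam1, Nrcam and Cntn6 kept theirs in every fit that left out 1 lung. In either fit that lost Mdga1, 90 genes were called lower over all genes, against 549 with all lungs. The others past the threshold were Cntn4 and Kirrel3, which rose, and Cntn2 and Thy1, which fell.

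Genes whose products have been reported to bind or cut IgLONs were also mixed. Of 9 tested, 2 rose, 2 fell and 5 did not pass (44.4% called, beside 8.71% of all genes, with a median log2 fold change of -0.08). This list, too, was chosen with earlier results of these data known, so nothing is read from its share. The fibroblast growth factor receptor genes Fgfr1 and Fgfr2 fell. Fgfr1, whose protein binds OPCML in human cells, had 84.6, 71.1 and 75.0 CPM in CKO replicates 1 to 3 and 108, 109 and 114 CPM in WT replicates 1 to 3 (log2 fold change -0.52 ± 0.07 SE, adjusted p = 0.00624), with no overlap. Fgfr2, which binds Negr1 in mouse cortex, had 208, 153 and 149.7 CPM in CKO replicates 1 to 3 and 268, 271 and 295 CPM in WT replicates 1 to 3 (log2 fold change -0.71 ± 0.12 SE, adjusted p = 0.0164). Adam10, a membrane protease gene, rose 1.47-fold (adjusted p = 0.0354), and Ncam1 rose as above. Fgfr1 and Ncam1 kept their calls with any 1 lung left out. Fgfr2 lost its call without CKO replicate 2, CKO replicate 3, WT replicate 1 or WT replicate 2 (highest adjusted p 0.0793), and Adam10 lost its call without any 1 lung other than CKO replicate 1 (highest adjusted p 0.142). In the fits that lost Fgfr2, calls over all genes fell to 162 to 325 higher and 90 to 157 lower, against 1006 and 549. The receptor genes Axl, Erbb2 and Epha2, the sterol carrier gene Npc2 and the protease gene Adam17 did not pass, at log2 fold changes of -0.16 to 0.00.

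**Figure D5:**
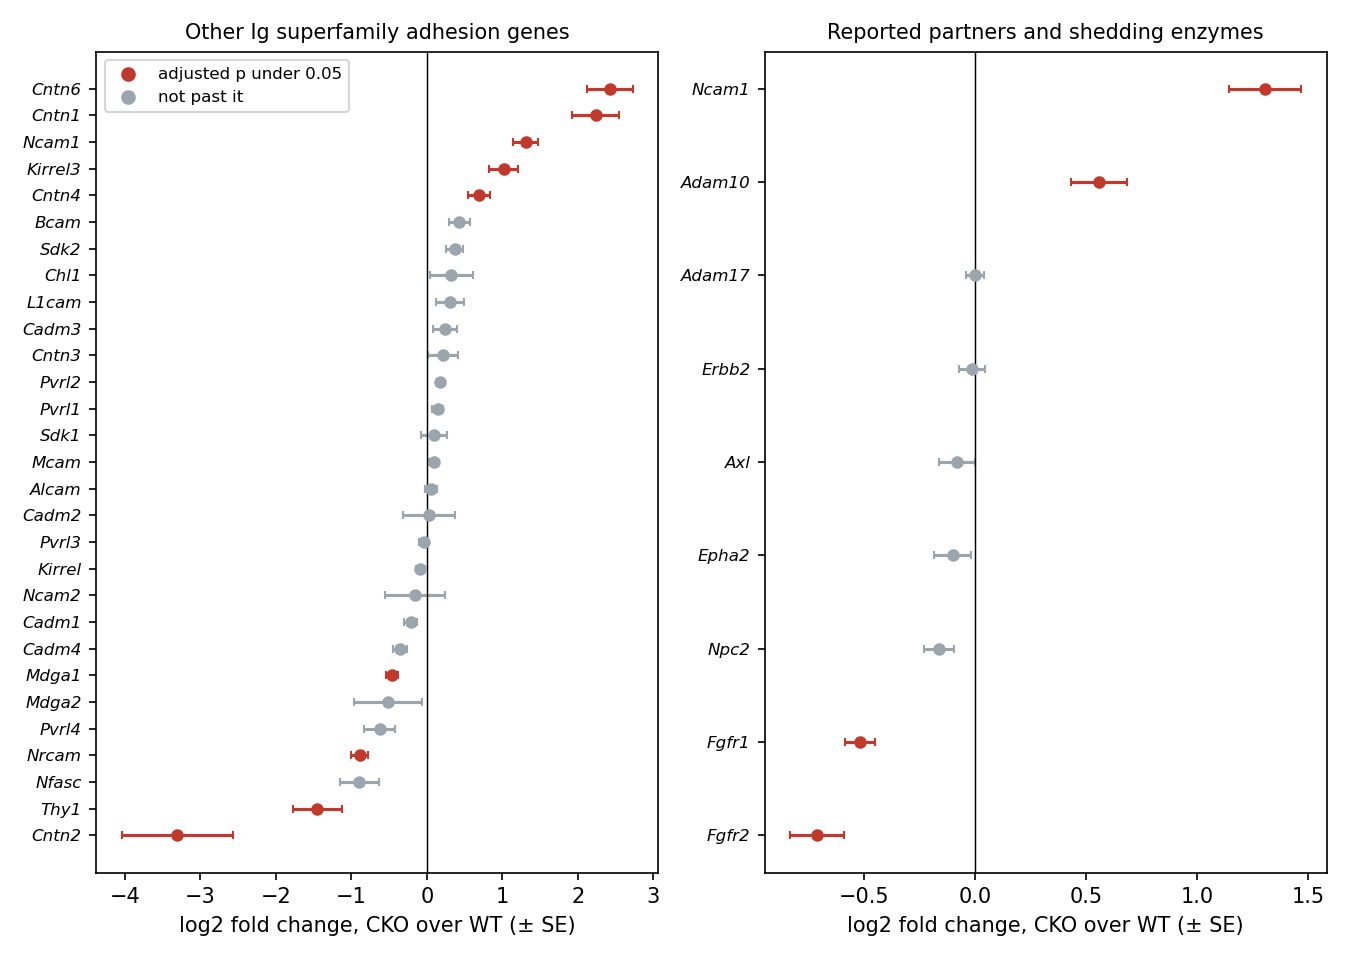
Log2 fold change, CKO over WT, with SE, for each tested gene of the adhesion list (left panel, 29 genes) and of the partner and protease list (right panel, 9 genes). Red points have an adjusted p under 0.05 over all genes: 5 higher and 4 lower on the left, 2 higher and 2 lower on the right.

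The enzymes that build and attach the GPI anchor, which every IgLON needs to reach the membrane, showed no calls. Of 28 listed, 27 matched and were tested, and 0 passed with edgeR or with DESeq2, beside 8.71% of all genes tested with edgeR. An unadjusted p under 0.05 in edgeR was seen for 3 of the 27, beside 4530 of all 17843 genes tested. Their median log2 fold change was -0.01.

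The genes with the pattern most like each member over the 6 lungs were ranked by Pearson correlation of log2 CPM among 13255 tested genes that averaged 1 CPM or more and had no predicted-gene symbol. With 2 separate groups of lungs, such values mostly mirror the gap between groups and the order within them, so the CKO and WT levels of these genes are a description with no test. For Opcml they included Prdm6 (r = 0.998), a transcriptional regulator known from smooth muscle, and Ednrb (r = 0.997), the endothelin receptor type B gene. Ednrb averaged 135 ± 2.34 CPM in CKO and 190.0 ± 2.69 CPM in WT lungs, and Prdm6 averaged 32.1 ± 0.859 CPM in CKO and 42.3 ± 0.666 CPM in WT lungs.

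For Negr1 they were Prepl (r = 0.997), Mmp2 (r = 0.997), a gelatinase of mesenchyme, and Cdc42ep4 (r = 0.996), an effector of the GTPase Cdc42. Mmp2 averaged 245 ± 6.89 CPM in CKO and 360.2 ± 9.30 CPM in WT lungs, and Cdc42ep4 averaged 139.6 ± 2.91 CPM in CKO and 202 ± 2.73 CPM in WT lungs. Prepl averaged 47.0 ± 0.514 CPM in CKO and 52.2 ± 0.476 CPM in WT lungs, 1.11-fold lower in CKO, beside 1.93-fold for Negr1. A high correlation thus does not mean a shift of the same size. For Lsamp they were C1qtnf1 (r = 0.996), Slc15a3 (r = 0.996) and Tcf4 (r = 0.994), and for Ntm they were Bysl (r = 0.995), Champ1 (r = 0.993) and Nmral1 (r = 0.989). Those of Lsamp were 1.17-fold, 1.84-fold and 1.16-fold higher in CKO lungs, beside 2.39-fold for Lsamp. Those of Ntm were 1.14-fold, 1.09-fold and 1.26-fold lower, beside 1.22-fold for Ntm.

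Markers of the cell types in which IgLONs might be made moved in several directions, and their part in the results was not tested. Of 12 tested neuron genes 1 rose, the Lsamp neighbour Gap43, and 1 fell, the receptor gene Ret, and Chat had 0 counts. Of all tested genes 5.64% were called higher and 3.08% lower, and 4530 of 17843 had an unadjusted p under 0.05 in edgeR. The neuron list summed to 38.3 to 46.0 CPM in CKO and 31.0 to 39.7 CPM in WT lungs. Without Gap43 the sum was 15.8 to 22.3 CPM in CKO and 23.0 to 29.0 CPM in WT lungs, which turns the direction. Most of that gap was Ret, at 1.75 ± 1.30 CPM in CKO and 8.24 ± 1.23 CPM in WT lungs. The sums therefore do not speak for the whole list, in which 5 log2 fold changes were above 0 and 7 below. Of 8 tested Schwann cell and glia genes 0 passed with edgeR and 1 with DESeq2, while 2 had an unadjusted p under 0.05, and the list summed to 96.9 to 113 CPM in CKO and 111 to 135 CPM in WT lungs. Most of that was Erbb3, and without it the sum was 12.4 to 15.5 CPM in CKO and 10.6 to 14.4 CPM in WT lungs. The defining Schwann cell marker Sox10 was low and averaged 0.715 ± 0.409 CPM in CKO and 0.767 ± 0.417 CPM in WT lungs.

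The same 5.64% called higher and 3.08% called lower over all tested genes are the background for the following counts. The marker lists were chosen with earlier results of these data known. Of 7 tested neuroendocrine genes 3 fell, with a sum of 3.35 to 3.86 CPM in CKO and 9.17 to 12.2 CPM in WT lungs. Of 8 smooth muscle genes 3 fell, with a sum of 543 to 914 CPM in CKO and 1246 to 1316 CPM in WT lungs, and CKO replicate 1 was the highest of the CKO lungs. Of 9 lung mesenchyme genes 3 fell and 1 rose, and their sums, 4112 to 4720 CPM in CKO and 3670 to 4209 CPM in WT lungs, overlapped. Most of these sums came from the collagen genes Col1a1 and Col1a2, which did not pass. Tbx5, Pdgfra and Wnt2 fell and Tcf21 rose, each with no overlap between groups, so the sums do not speak for the whole list. Of 7 endothelial genes 5 rose, and of 7 immune genes 5 rose, while the other 2 of each list did not pass. An unadjusted p under 0.05 in edgeR was seen for 6 endothelial, 7 immune, 7 smooth muscle, 4 neuroendocrine and 5 lung mesenchyme genes. Over all tested genes it was seen for 4530 of 17843. The 7 smooth muscle genes were all lower in CKO lungs. Of the remaining lists, 4 of 6 red blood cell genes, 2 of 6 skeletal muscle genes and 1 of 7 mesothelial genes rose, 2 of 9 epithelial genes fell, and 0 of 6 pericyte and 0 of 5 heart muscle genes passed (2 and 1 at an unadjusted p under 0.05, and 1 and 0 with DESeq2). An unadjusted p under 0.05 was seen for 6 red blood cell, 5 mesothelial, 2 skeletal muscle and 7 epithelial genes. The skeletal muscle genes that rose were Pax7 and Myh8, and the other tested ones had log2 fold changes of -0.48 to -0.20. Of the mesothelial log2 fold changes 4 were above 0 and 3 below. Upk3b was the one called, and Msln and Krt19 were lower in CKO lungs with no overlap. With CKO replicate 2, CKO replicate 3, WT replicate 1 or WT replicate 2 left out, 0 immune, 0 skeletal muscle and 0 epithelial genes passed in the directions given above, 0 to 1 smooth muscle and red blood cell genes did, and 1 to 2 endothelial genes did. Calls over all tested genes fell too in these fits, to 162 to 325 higher and 90 to 157 lower, against 1006 and 549. The lost calls are thus not particular to these lists.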

How the data were processed

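Per the submitters' processing notes the authors used cutadapt 1.13, Trimmomatic 0.35, STAR 2.5.2b on GRCm38, HTSeq 0.6.1p2 and edgeR 3.16.5, and per the file headers the annotation was GENCODE M8. No source used here gives the strand setting of the counting. The authors deposited raw counts per gene and run, RPKM per run, and a table of log2 fold changes whose treatment of the 2 runs is not given. A further 24 per-sample columns of the comparison table were not used.

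The 2 runs of a lung were summed; the chi-square per degree of freedom was 1.42 to 1.50 between runs of a lung and 8.46 to 45.6 between lungs of a group, over genes with at least 20 counts. The 92 spike-ins (0.498% to 0.595% of counts) were left out. Counts were tested with edgeR 4.0.16 in R 4.3.3 (quasi-likelihood F test, TMM, filterByExpr with a minimum count of 10, group as the single factor, 6 lungs), with Benjamini-Hochberg adjustment over all tested genes; a gene is called at an adjusted p under 0.05. Named list genes are up to 5 called members with the smallest p, and likeness names the 3 highest correlations (prior count 2), of which some are not reported here. Other names follow their positions or spell out small counts. The members and lists were chosen with earlier results of these data known. Positions and exon lengths are from GENCODE M21, in which 98.8% of genes matched by identifier. The code was tested on simulated data. DESeq2 1.42.0, other scalings, no filter, covariates, single runs and leaving out each lung were alternatives.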

Additional observations from a re-analysis of the deposited data

How the results depend on the processing

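Under other scalings, DESeq2, no low-count filter, covariates and single runs, the log2 fold changes of Opcml, Negr1, Ntm and Lsamp moved by less than the SD between lungs, and 3 of the 4 genes were called except with run 17 alone, where Lsamp was not. The count of genes lower in CKO lungs was 1027 with DESeq2 and 884 with no filter, against 549. Of the other adhesion genes, 8 rose with DESeq2, against 5, and 2 fell with run 17 alone, against 4. With 1 lung left out, 162 to 1713 genes were called higher and 90 to 1185 lower, the fewest higher without WT replicate 2, the fewest lower without CKO replicate 2 or WT replicate 2, and the most of either kind without CKO replicate 1. In the same fits 2 to 4 of the IgLON genes were called, 2 to 8 adhesion genes rose and 1 to 5 fell, 1 to 2 partner and protease genes rose and 1 to 2 fell, 0 to 7 immune, 1 to 6 endothelial and 0 to 6 red blood cell, 0 to 2 skeletal muscle and 1 to 2 mesothelial markers rose, 0 to 7 smooth muscle and 0 to 5 epithelial markers fell, and 3 neuroendocrine markers fell in each fit. Whether the replicate numbers pair the lungs was not settled. Deviations of lungs with the same number correlated at 0.10, 0.09 and 0.04. Only CKO replicate 3 correlated better with another number, at 0.06 with WT replicate 2. With the replicate block, 1087 genes were higher and 693 lower and the Opcml log2 fold change was -1.60, and no IgLON call changed. In an alternative chosen after seeing the data, which left the most abundant gene out of each marker list, the log2 ratio of summed CPM (CKO over WT) was -0.49 for neurons, against 0.29, 0.07 for Schwann cells and glia, against -0.23, -0.83 for neuroendocrine cells, against -1.55, -0.05 for epithelium, against -0.31, -0.51 for mesothelium, against -0.06, and 0.35 for skeletal muscle, against 1.05. It was -0.03 for pericytes, against 0.10, and the sign held for the other 6 lists. The lung mesenchyme sum lost Col1a2 but kept the abundant Col1a1, so its sign says little about the other mesenchyme genes. Depth limits Lsamp, with 29 to 141 counts per lung.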
